A study of Schizosaccharomyces pombe with 6 samples.

Results

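The mitochondrial ribosome is built from ribosomal RNAs encoded in mitochondrial DNA and from proteins that are almost all encoded in the nucleus, made in the cytoplasm and imported. It has a small subunit, which reads the message, and a large subunit, which joins the amino acids. In yeasts it makes a handful of membrane subunits of the respiratory chain and of the ATP synthase, so its nuclear genes are tied to respiratory growth. The transcripts described here are those of the nuclear genes for its proteins in the fission yeast Schizosaccharomyces pombe. A gene was included when its symbol was mrp, mrpl, mrps or rsm followed by a number, or when its description held the words mitochondrial ribosomal protein. This rule found 75 of the 5160 genes in the deposited table, 54 by symbol and 74 by description, with 53 found by both.

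Whole-cell RNA was enriched for polyadenylated messages with oligo(dT) and sequenced in 3 wild-type libraries and 3 libraries of a dsk1 mutant. Dsk1 is a kinase of the SR protein kinase family, whose members phosphorylate serine- and arginine-rich RNA-binding proteins. The series' design text writes the mutant as a deletion, whereas the genotype label calls it a knockdown. No other allele, strain background, growth condition or culture is given for either group, and the spread behind the p-values is that of these libraries alone, which may be technical. In bulk RNA, fewer transcripts per cell and fewer expressing cells cannot be told apart.

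The libraries held between 15700362 and 19020530 gene-assigned counts. Levels of dsk1 itself were 99.4, 102.2 and 99.96 CPM (counts scaled to library size) in wild type and 13.7, 11.3 and 11.9 CPM in the mutant, a log2 fold change of −3.03 (SE 0.13, edgeR's quasi-likelihood test, Benjamini-Hochberg adjusted p = 1.34e-04). Wild-type replicate 2 stood apart from the other 5 libraries on the first principal component, at −37.9 against −9.54 to 19.6. Mutant replicates 1 and 2 also differed from the rest in that longer genes were higher, with Spearman correlations between a gene's deviation and its exon length of 0.306 and 0.304 against −0.171 to −0.0684 in the other 4 libraries.

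By their descriptions, or otherwise by their symbols, 44 members belonged to the large subunit and 23 to the small subunit. For 7 members neither the description nor the symbol gave a subunit. The remaining one, rsm1, was chosen by its symbol alone and is described as an RNA export factor, so it is not a mitochondrial ribosomal protein by its annotation. Leaving rsm1 out moved the members' median log2 fold change by less than the rounding, to 0.05. Descriptions of 71 members carried the word predicted. Fusion products are among the 75 members: cox1101 and cox1102 encode a cytochrome c oxidase assembly factor joined to Rsm22.

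In wild type the members were moderately expressed and close to each other. Their median FPKM, a fragment count scaled by gene length and library size, was 40.3, beside 39.75 for all 4987 genes tested, and 38 of the 75 members lay above the all-gene median. The middle 80 percent of members spanned 15.0 to 77.2 FPKM, a 5.15-fold range, whereas that of all genes tested spanned 7.58 to 249.5 FPKM, a 32.9-fold range. Between 10 and 100 FPKM lay 70 of the 75. The ranking was nearly the same in the mutant, with a Spearman correlation of 0.969 between the group means across the 75 genes, which share the same 6 libraries and are not independent replicates.

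**Figure D1:**
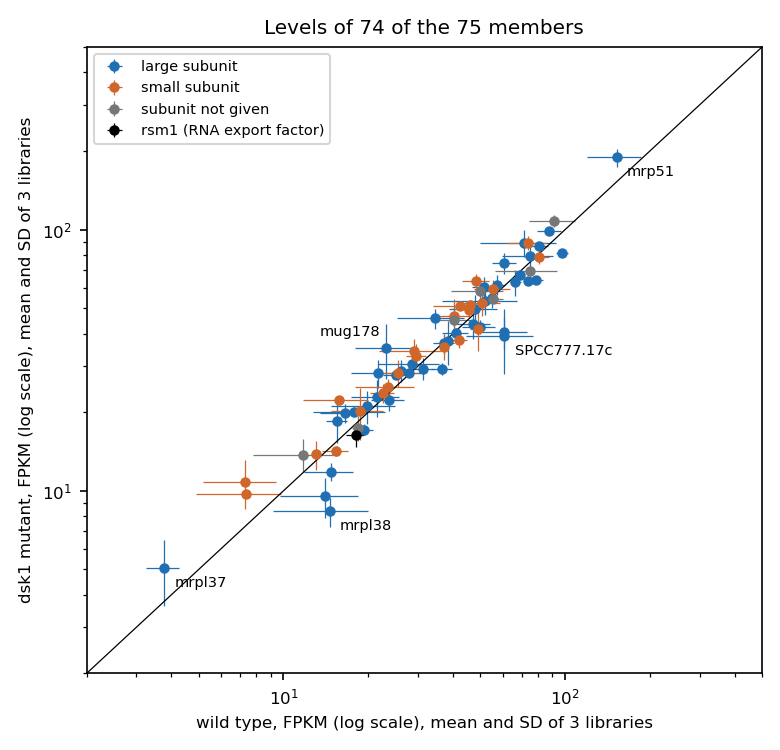
Mean FPKM of 74 of the 75 members in the 3 dsk1 mutant libraries against the 3 wild-type libraries, on log axes with SD bars, with points marked by subunit and the line of equal levels drawn. They lie along that line from mrpl37 at 3.76 FPKM to mrp51 at 152.3 FPKM in wild type.

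Among the high transcripts were mrp51, described as subunit L51-b, at 152.3 ± 33.1 FPKM in wild type (SD, n = 3), and SPBC83.06c, a subunit L36 named after budding yeast Rtc6, at 97.7 ± 5.04 FPKM. These were followed by SPBC3H7.04, at 91.5 ± 17.1 FPKM, whose description joins a superoxide dismutase to a ribosomal subunit. The order of SPBC83.06c and SPBC3H7.04 lay within their spread. The lowest was mrpl37, subunit L37, at 3.76 ± 0.51 FPKM. Above it were rsm7, subunit S7, at 7.31 ± 2.12 FPKM, mrps28, subunit S28, at 7.36 ± 2.46 FPKM, and mrp49 at 11.75 ± 3.96 FPKM. The order of rsm7 and mrps28 lay within their spread. Of mrps28, 83.1 percent is covered on the other strand by cog8, so its counts are uncertain.

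Shared descriptions did not mean shared levels. The 75 members include 9 pairs with the same subunit name, although a number can come from the bacterial or the budding yeast naming system, so a shared one does not show that the genes are copies of each other. Within the L51-b pair, mrp51 stood at 152.3 ± 33.1 FPKM and mug178 at 23.2 ± 5.24 FPKM in wild type. Within the L36 pair, SPBC83.06c stood at 97.7 ± 5.04 FPKM and tam9 at 16.5 ± 3.01 FPKM. The S18 pair also differed, with rsm18 at 80.5 ± 7.40 FPKM and mrps18 at 15.3 ± 1.66 FPKM. By contrast, the L15 pair of mrp15 and mrpl10 stood at 71.2 ± 21.5 and 74.1 ± 1.51 FPKM, which lay within the spread. For 68 members the length implied by count and FPKM was within 1.3 times the RefSeq exon length. It was 2.48 times that length for mrps16, 2.03 times for mrpl24, 1.61 times for mrps18 and 1.45 times for SPBC83.06c, so the FPKM of these genes is lower than a RefSeq length would give.

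As a body, the members took a similar part of the messenger pool in both groups. Their share of all counts was 0.506, 0.468 and 0.517 percent in the wild-type libraries and 0.506, 0.505 and 0.486 percent in the mutant libraries. The groups overlapped, and the lowest share was that of wild-type replicate 2. Summed over members, the level was 5048 ± 154.1 CPM in wild type and 4918 ± 203.2 CPM in the mutant (SD, n = 3).

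No member passed the test for a change in the dsk1 mutant. With edgeR's quasi-likelihood test and a Benjamini-Hochberg adjusted p under 0.05 over 4987 genes, 0 of 75 members were called higher, where 22 genes in all, or 0.441 percent, were. Likewise 0 of 75 were called lower, where 79 genes, or 1.58 percent, were. All 75 had passed the filter on low counts, and the smallest adjusted p of a member was 0.116. At an unadjusted p under 0.05, 4 members (5.33 percent) were higher in the mutant beside 9.2 percent of all genes, and 7 (9.33 percent) were lower beside 13.5 percent of all genes. DESeq2's Wald test, an alternative on the same counts, called 1 member higher, mrps8, where it called 4.01 percent of 5115 genes. It called 1 member lower, SPCC777.17c, where it called 7.1 percent of genes. Limma on log2(FPKM + 1) called 0 members. In the authors' deposited table, 2 members had an adjusted p under 0.05 among 568 such genes, 11.01 percent of that table. These were mrps8 at a log2 fold change of 0.40 and SPCC777.17c at −0.64, values that match ratios of mean FPKM. Their adjusted p there, 0.0217 and 0.0463, and the total of 568 genes equal those of the DESeq2 Wald test here. The deposited calls are thus the same result and not a further source. With 75 members and all-gene shares of 0.441 and 1.58 percent, 0 calls in each direction under edgeR is near the background. Under DESeq2 the members' counts lay below the share called among all genes, and that difference was not tested.

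The estimates were also narrow, so the size of change that remains possible can be stated. Log2 fold changes of the members ran from −0.83 to 0.55, that is from 1.78-fold lower to 1.47-fold higher in the mutant. Their median was 0.05 beside −0.0003 for all genes tested. Of the members, 44 (58.7 percent) were above 0 and 31 below, beside 49.99 percent of all genes above 0. Without wild-type replicate 2 the median was −0.01 beside 0.01 for all genes, and 35 of the 75 were above 0. The interquartile width was 0.333 for members and 0.468 for all genes. The 95% interval lay wholly within 2-fold either way for 69 of 75 members (92.0 percent), beside 79.5 percent of all genes. It lay within 1.5-fold for 51 members (68.0 percent), beside 41.7 percent. The 6 members whose interval reached past 2-fold were SPCC777.17c, mrpl38, mrpl23, mrpl44, rsm7 and mrpl37. The lowest count of any member in any library was 44, and the median count was 829.

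**Figure D2:**
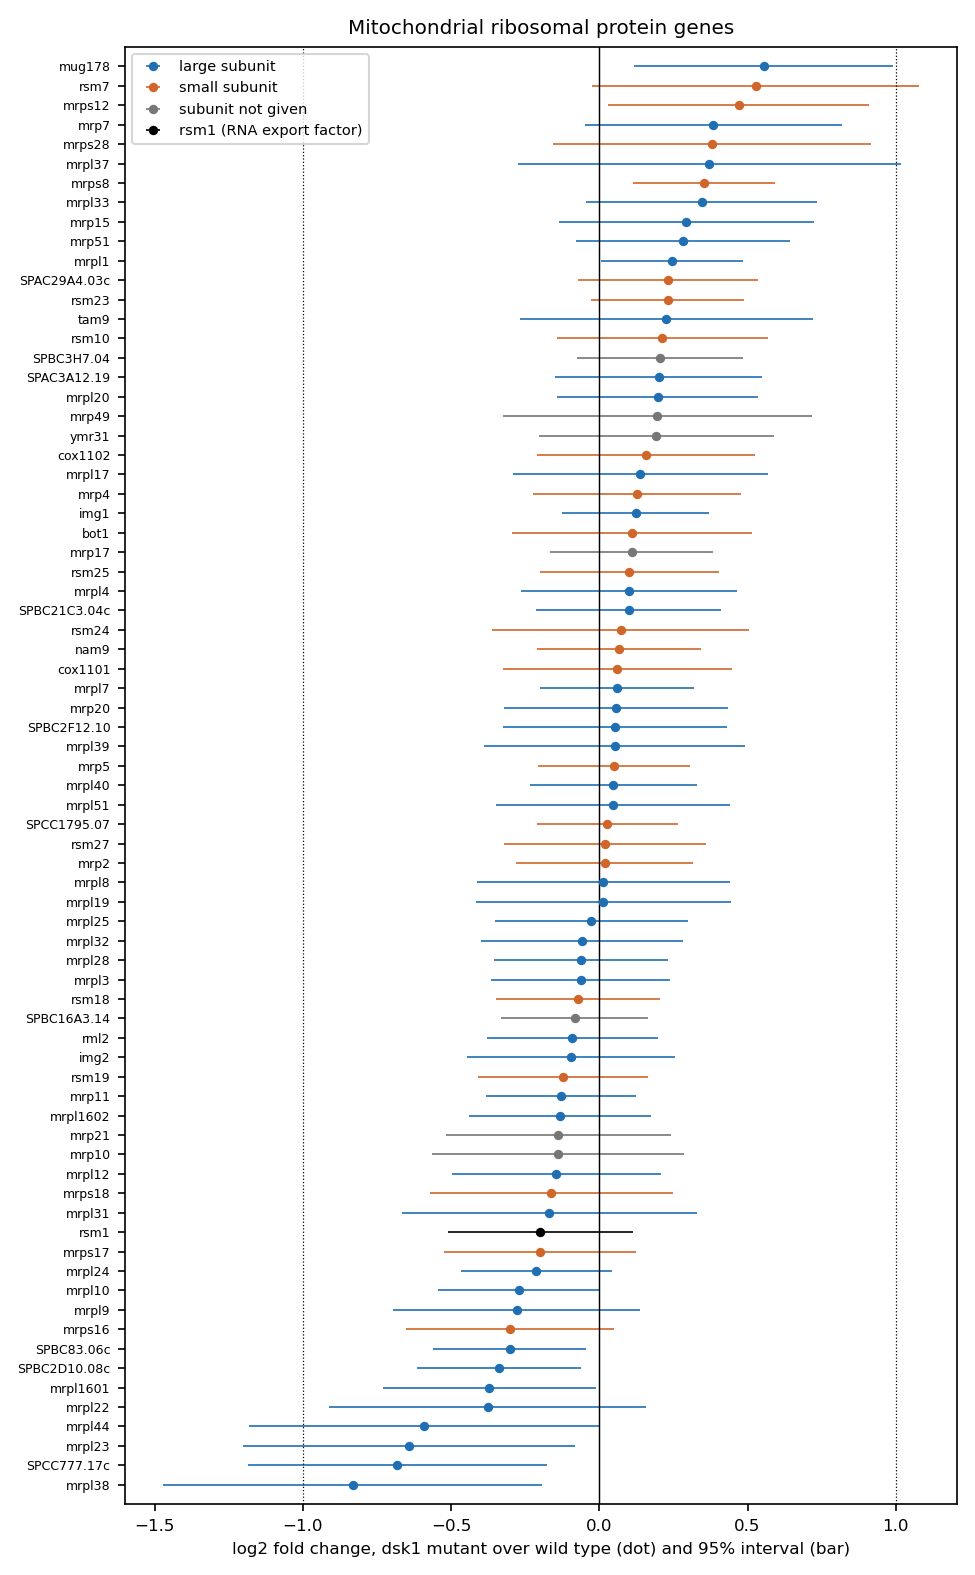
Log2 fold change, mutant over wild type, of 74 of the 75 members with its 95% interval from edgeR's quasi-likelihood fit, ordered by estimate and coloured by subunit. The estimates run from −0.83 for mrpl38 to 0.55 for mug178, and none passed the adjusted threshold.

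Among small subunit genes, estimates lay more often above 0 than below it. Of 23 members, 18 (78.3 percent) had a log2 fold change above 0, beside 49.99 percent of all genes tested. Their median was small, at 0.07, and 0 were called. The 23 genes share the same 6 libraries and are not independent replicates, and the difference from all genes was not tested. Those above 0 include mrps28, rsm10, mrp4, bot1, SPCC1795.07, mrp2 and rsm27, each covered over at least 50 percent by a gene on the other strand. Their counts are thus uncertain, and no small subunit gene below 0 was covered to that extent. The smallest adjusted p belonged to mrps8, subunit S8, a protein that binds the ribosomal RNA of the small subunit directly. Its level was 57.2, 55.7 and 59.3 CPM in wild type and 74.1, 72.9 and 73.0 CPM in the mutant. The 3 mutant libraries all lay above the 3 wild-type libraries, and each group was tight. The log2 fold change was 0.35 (SE 0.10, edgeR adjusted p = 0.116), and alternatives gave an edgeR, DESeq2 or limma adjusted p between 0.0217 and 0.381.

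The small subunit protein S12 lies at the decoding centre of ribosomes, and its gene mrps12 stood at 16.1, 11.5 and 16.6 CPM in wild type and 19.5, 19.1 and 22.7 CPM in the mutant. Here too the groups did not overlap, with wild-type replicate 2 the lowest library (log2 fold change 0.47, SE 0.19, edgeR adjusted p = 0.198). Subunit S7 is part of the head of the small subunit, and rsm7 stood at 8.63, 5.51 and 8.10 CPM in wild type and 12.2, 11.1 and 8.76 CPM in the mutant. The groups were separated by a narrow gap, between wild-type replicate 1 and mutant replicate 3 (log2 fold change 0.53, SE 0.24, edgeR adjusted p = 0.233). For mrps28 the levels were 11.9, 7.12 and 12.1 CPM in wild type and 13.4, 13.2 and 14.0 CPM in the mutant. Again wild-type replicate 2 was the lowest (log2 fold change 0.38, SE 0.23, edgeR adjusted p = 0.348), and without it the log2 fold change was 0.17.

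Large subunit genes were evenly divided, with 22 estimates above 0 and 22 below and a median log2 fold change of −0.007, whose sign was not stable across alternatives. The 7 members lower at an unadjusted edgeR p under 0.05 were all large subunit genes, 7 of 44, beside 13.5 percent of all genes. Counting both directions, 20.45 percent of large subunit members were under that p, beside 22.68 percent of all genes. All 4 members whose estimate was beyond 1.5-fold were also large subunit genes, beside 689 of the 4987 genes tested. Of these 4, 3 were under 800 bases. The most extreme estimate was that of mrpl38, named after a budding yeast protein of the bacterial L14 type. Its level was 8.51, 4.91 and 9.21 CPM in wild type and 4.17, 4.58 and 3.98 CPM in the mutant. The groups did not overlap, but wild-type replicate 2 lay close to the mutant libraries. The log2 fold change was −0.83 (SE 0.27, edgeR adjusted p = 0.142). Without wild-type replicate 2 it was −1.06 with an edgeR adjusted p of 0.0183, the lowest among alternatives that reached 0.402.

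SPCC777.17c, one of the members described as subunit L9, stood at 64.6, 47.7 and 71.6 CPM in wild type and 37.1, 47.5 and 30.1 CPM in the mutant. Wild-type replicate 2 and mutant replicate 2 were nearly level, and the other libraries were well apart. The log2 fold change was −0.68 (SE 0.22, edgeR adjusted p = 0.133). Leaving out wild-type replicate 2 gave −0.83 with an edgeR adjusted p of 0.0257, the lowest among alternatives that reached 0.388. The length implied by its FPKM was 1.37 times the RefSeq exon length. The other L9 gene, mrpl9, had a log2 fold change of −0.28 (SE 0.18), and rna15 covers 58.1 percent of it on the other strand.

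SPBC2D10.08c is described as Yml6, which in budding yeast is an L4-type protein that lines the tunnel through which the new chain leaves. It stood at 59.5, 65.3 and 63.3 CPM in wild type and 47.2, 47.2 and 54.4 CPM in the mutant, without overlap (log2 fold change −0.34, SE 0.12, edgeR adjusted p = 0.162). SPBC83.06c, an L36-type gene, stood at 66.6, 68.9 and 64.0 CPM in wild type and 51.2, 52.9 and 57.6 CPM in the mutant, again without overlap (log2 fold change −0.30, SE 0.11, edgeR adjusted p = 0.174). With a gene length trend removed from each library its log2 fold change was −0.12 (edgeR adjusted p = 0.498). In both genes mutant replicate 3 was the mutant library nearest to wild type. The same held for mrpl23, subunit L13, at 46.1, 68.6 and 40.1 CPM in wild type and 28.6, 29.7 and 41.0 CPM in the mutant. Its groups overlapped, since mutant replicate 3 was above wild-type replicate 3 (log2 fold change −0.64, SE 0.24, edgeR adjusted p = 0.178). Without wild-type replicate 2 the log2 fold change of mrpl23 was −0.38.

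Some genes classed as large subunit lay the other way. The class of mug178 and mrp51 rests only on the L51-b wording of their descriptions and was not checked otherwise. For mug178, the lower member of the L51-b pair, levels were 46.3, 33.3 and 40.6 CPM in wild type and 66.9, 63.3 and 46.4 CPM in the mutant. Mutant replicate 3 was within 1 CPM of wild-type replicate 1, and the other mutant libraries were well above (log2 fold change 0.55, SE 0.19, edgeR adjusted p = 0.151). Subunit L1 forms the mobile stalk beside the exit site of the ribosome, and mrpl1 stood at 68.7, 65.9 and 67.8 CPM in wild type and 81.8, 81.1 and 77.0 CPM in the mutant. These groups were tight and apart, yet the estimate was small (log2 fold change 0.25, SE 0.10, edgeR adjusted p = 0.213).

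**Figure D3:**
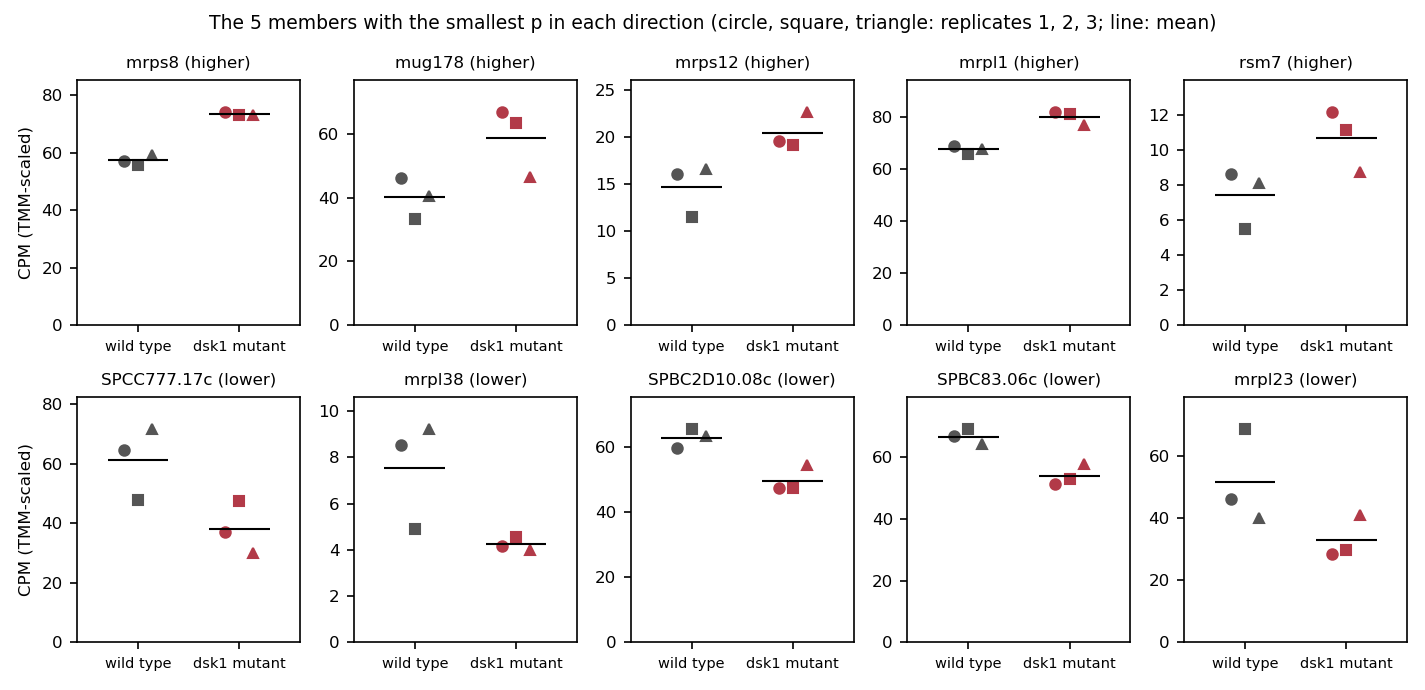
CPM in each of the 6 libraries for the members with the smallest unadjusted p in each direction, with the group means. The mutant points of mrps8 lie at 72.9 to 74.1 CPM above wild-type points at 55.7 to 59.3 CPM, whereas those of mrpl23 overlap.

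Abundant members showed no called difference either. For mrp51 the levels were 262.6, 233.5 and 312.8 CPM in wild type and 290.3, 318.4 and 374.7 CPM in the mutant, with overlap (log2 fold change 0.28, SE 0.15, edgeR adjusted p = 0.311), and the log2 fold change was 0.17 without mutant replicate 3. SPBC3H7.04, whose budding yeast relatives are small subunit proteins of the superoxide dismutase fold, stood at 113.9, 96.2 and 119.9 CPM in wild type and 124.5, 127.0 and 128.7 CPM in the mutant. Its groups did not overlap (log2 fold change 0.20, SE 0.12, edgeR adjusted p = 0.335), and without wild-type replicate 2 the log2 fold change was 0.12.

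Of the rarest members, mrpl37 stood at 3.04, 4.30 and 2.93 CPM in wild type and 5.68, 3.82 and 3.71 CPM in the mutant, with overlap (log2 fold change 0.37, SE 0.28, edgeR adjusted p = 0.437). Its log2 fold change was 0.57 without wild-type replicate 2 and 0.14 without mutant replicate 1. Levels of mrp49 were 14.6, 10.8 and 18.9 CPM in wild type and 18.2, 17.3 and 15.2 CPM in the mutant, also with overlap (log2 fold change 0.20, SE 0.22, edgeR adjusted p = 0.613). Its log2 fold change was 0.02 without wild-type replicate 2 and 0.41 without wild-type replicate 3. Both lay well above the floor that 3 counts set, 0.158 to 0.191 CPM. Spread among the mutant libraries chose mrpl19, subunit L19, at 30.0, 29.6 and 37.1 CPM in wild type and 27.6, 30.2 and 39.9 CPM in the mutant. It had no stable direction (log2 fold change 0.01, SE 0.18, edgeR adjusted p = 0.967).

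Over all 75 members, the 3 mutant libraries lay above the 3 wild-type libraries for 12 (16 percent), beside 15.5 percent of all genes. They lay below for 10 (13.3 percent), beside 16.6 percent of all genes, and overlapped for 53. Separated groups were thus at about the background share among the members. Of the 12, 6 were among the 23 small subunit genes, 5 among the 44 large ones and 1 had no given subunit. Of the 10, 9 were among the 44 large subunit genes, and the other was mrps16. Wild-type replicate 2 was the highest or the lowest of the 6 libraries for 54 members (72.0 percent), as for 69.2 percent of all genes. The range among the wild-type libraries had a median of 0.34 on the log2 CPM scale for members and 0.44 for all genes, and among the mutant libraries 0.24 and 0.27.

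**Figure D4:**
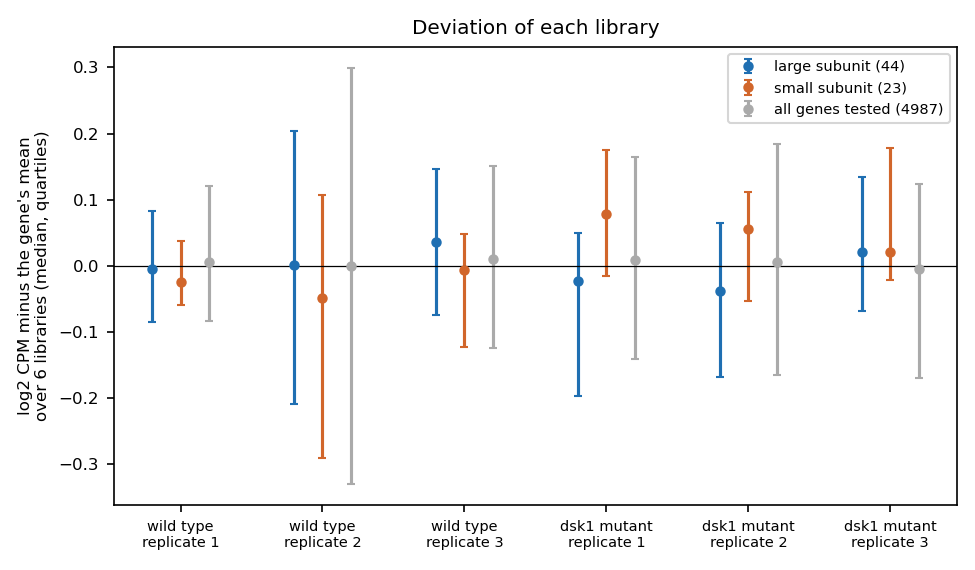
Deviation of each gene's log2 CPM from its mean over the 6 libraries, as the median (point) and quartiles (bar) per library for the 44 large subunit members, the 23 small subunit members and all 4987 genes tested. Wild-type replicate 2 has the widest quartiles in each set, −0.21 to 0.20 for large subunit and −0.29 to 0.11 for small subunit members.

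Member genes were short, with a median exon length of 1060 bases beside 1711 in all genes tested, and length moved with the fold change across the genome. The Spearman correlation of log2 fold change with exon length was 0.257 across 4951 genes and 0.196 across the 75 members, points that share the same 6 libraries. The 16 members under 800 bases had a median log2 fold change of −0.10, beside −0.18 for all genes of that length. The 30 members from 800 to under 1200 bases had 0.03 beside −0.06, and the 29 members of 1200 bases and over had 0.10 beside 0.04. In each length class the members' median was thus above that of all genes, by less than 0.1 on the log2 scale. The classes were not recomputed without wild-type replicate 2, where the members' median was −0.01 beside 0.01 for all genes. With a smooth length trend removed from each library, the median of the members was 0.07, beside −0.02 for all genes tested. Among the named members the same step moved SPBC83.06c and mrpl19 by over 1.5 times, to −0.12 and 0.14, and changed no call.

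The 33 members with introns had a median log2 fold change of 0.02, and the 42 without had 0.06. All 4 members with an estimate beyond 1.5-fold had introns, 4 of 33, beside 689 of the 4987 genes tested. They are the same 4 large subunit genes as above, of which 3 were under 800 bases. At an unadjusted edgeR p under 0.05, 0 were higher and 4 lower with introns, and 4 were higher and 3 lower without. In either direction these were 12.1 percent of members with introns and 16.7 percent of those without, beside 22.7 percent of all genes. Intervals lay within 2-fold for 84.9 percent of members with introns and 97.6 percent of those without. The difference between members with and without introns was not tested. For 17 members, at least 50 percent of the gene is covered by a gene on the other strand. Whether counting used strand is not given in the sources used here, so reads of these genes and their antisense partners cannot be told apart. Their median was 0.06 beside 0.05 for the 58 others, and 0 of the 17 were below an unadjusted p of 0.05.

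Few other nuclear genes of mitochondrial translation were called, and few genes were called in all. Over all genes tested, 0.441 percent were called higher and 1.58 percent lower, and these lists are short. In a list of 35 mitochondrial gene expression factors, 0 were called and the median log2 fold change was −0.09. The list was chosen by symbol or description, and 14 of its names matched no gene. The smallest unadjusted p there belonged to cbs2, which is described as an AMP-activated protein kinase subunit (log2 fold change −0.48, SE 0.12, edgeR adjusted p = 0.0891). That description names no part in mitochondrial gene expression, yet the list's count and median include cbs2. Next were ppr8, a pentatricopeptide repeat protein (−0.47, SE 0.15, edgeR adjusted p = 0.138), and sls1, an inner membrane protein (0.89, SE 0.29, edgeR adjusted p = 0.14). Of 18 mitochondrial aminoacyl-tRNA synthetases, which charge the tRNAs that the ribosome uses, 0 were called higher and 1 lower. This was SPBC24C6.03, the predicted proline-tRNA ligase, at 115.9, 107.5 and 125.4 CPM in wild type and 59.3, 75.2 and 59.5 CPM in the mutant, without overlap. It fell by 0.85 on the log2 scale (SE 0.14, edgeR adjusted p = 0.0341). The list's median was −0.11. The lysine enzyme SPCC18.08 (1.06, SE 0.34, edgeR adjusted p = 0.133), fully covered on the other strand by hnt3, and the valine enzyme vrs2 (−0.32, SE 0.12, edgeR adjusted p = 0.176) did not pass.

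Nuclear genes of the respiratory complexes make products that assemble with the proteins made on the mitochondrial ribosome. Their median log2 fold change was −0.16 over 49 genes tested. Of these, 0 were called higher and 3 lower, beside 0.441 and 1.58 percent of all genes tested. The called genes were qcr10 and qcr9, small subunits of the cytochrome bc1 complex, at −0.89 (SE 0.13) and −0.68 (SE 0.12), and cox17, a copper chaperone of cytochrome c oxidase, at −1.14 (SE 0.20). A gene on the other strand, mcm3, covers 77.3 percent of qcr9. Cytoplasmic ribosomal proteins, the most like gene set, had a median of −0.19 over 139 genes, with 0 called higher and 1 lower, rps3002 at −0.91 (SE 0.16). For these genes wild-type replicate 2 was the highest library in 75.5 percent, whereas it was the highest in 32.0 percent of the mitochondrial ribosomal members. These lists are short-gene lists too, with median exon lengths of 950 and 621 bases. Of 552 tested genes under 800 bases, 2 were called higher and 20 lower. Of 799 from 800 to under 1200 bases, 2 were called higher and 12 lower. No difference between the lists and the members was tested.

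Transcripts of the mitochondrial genome itself were almost absent from these oligo(dT)-enriched libraries. The 11 listed genes summed to 26, 29 and 47 counts in the wild-type libraries and 23, 30 and 28 counts in the mutant libraries. Of them, var1 encodes a small subunit protein of the mitochondrial ribosome and had 1 count in all, in mutant replicate 2. The nuclear gene new15, described as a ribosomal subunit L35 but outside the wording of the rule, had 0 counts in all 6 libraries. Its level and that of var1 could therefore not be measured in these libraries, and the reason was not tested.

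Markers of sexual differentiation, a state that some cells of a culture may enter, were checked as the other cell state these samples could hold. Of 7 tested, 0 were called, with 5 estimates above 0 and 2 below. Their summed level ranged from 192.2 to 339.3 CPM in wild type, lowest in replicate 2, and from 317.7 to 410.3 CPM in the mutant. The smallest unadjusted p belonged to rec8, which was lower (log2 fold change −0.87, SE 0.17, edgeR adjusted p = 0.0512). Next were mam2 (1.055, SE 0.46, edgeR adjusted p = 0.223) and mei4 (0.33, SE 0.15, edgeR adjusted p = 0.245), both higher. The part of these markers in the members' values was not tested.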

How the data were processed

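Messenger RNA of 3 wild-type and 3 dsk1 mutant libraries was sequenced. The authors deposited, per the file headers, raw counts per gene, FPKM values and their own comparison with log2 fold changes and p-values. Per the submitters' processing notes, DESeq2, RSEM, StringTie, HISAT2, Bowtie2 and fastp were used, with no role or order stated. Genome build, annotation and strand use: not given in the sources used here. No coordinates are printed for that reason. Exon length, introns and overlap came from RefSeq, which matched all 75 members and 5109 of 5160 genes.

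Counts were fitted with edgeR 4.0.16 in R 4.3.3 (TMM scaling, filterByExpr, glmQLFit and glmQLFTest, genotype as the only term), with Benjamini-Hochberg adjustment over the 4987 genes kept. Levels are TMM-scaled CPM. The SE is the absolute log2 fold change divided by the square root of F, and 95% intervals use the t distribution with the fit's degrees of freedom. They cover the spread between libraries. Floors of 3 counts cover counting error only. Alternatives were DESeq2 1.42.0, limma 3.58.1 on log2(FPKM + 1) and log2(FPKM + 0.1), other scaling and filters, a replicate block, removal of a length trend and leaving out each library. The scripts were tested on simulated data.

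Members and lists were chosen with earlier results of these data known. Named members were the 5 with the smallest unadjusted p in each direction, the 4 highest and 4 lowest in wild-type FPKM, and the 3 with the widest range among the libraries of each group at a mean of at least 5 CPM. In each other list the 3 genes with the smallest unadjusted p and any called gene were eligible to be named. Others were named after their values were seen. A member that this rule names is not reported here and is left out of the plots of single members, while counts and medians over the members include it.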

Additional observations from a re-analysis of the deposited data

How the results depend on the processing

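The count of called members was 0 in each direction under other scaling, no count filter, limma, the replicate block, removal of the length trend and a threshold of 0.01. The exceptions were 1 higher and 1 lower under DESeq2, and 2 lower without wild-type replicate 2, so that leaving out libraries gave 0 to 2 lower. Over all genes, 101 were called, 568 by DESeq2, 5 at a threshold of 0.01 and 3 to 466 with one library left out, the highest without wild-type replicate 2. With the replicate number as a block 3 genes were called. The labels do not say whether the numbers pair the samples. Deviations of same-numbered libraries had correlations of 0.165, −0.358 and −0.187, beside −0.227 to 0.408 for libraries of unlike numbers. So few libraries cannot decide whether the samples are paired.

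Limma on FPKM also moved the median of all genes, from −0.0003 to 0.051 with a pseudocount of 1, 0.045 without a filter and 0.052 with a pseudocount of 0.1. The all-gene median was −0.024 with the length trend removed. The members' median of 0.048 was 0.093 with limma on log2(FPKM + 1), with or without a filter, 0.095 with a pseudocount of 0.1, 0.072 with the length trend removed and −0.013 to 0.058 with one library left out. The large subunit median of −0.007 was 0.035 with limma with or without a filter, 0.036 with a pseudocount of 0.1, 0.059 with the length trend removed and −0.073 to 0.0082 with one library left out. The small subunit median of 0.072 was 0.114 with limma with or without a filter, 0.117 with a pseudocount of 0.1, 0.105 with the length trend removed and 0.064 to 0.110 with one library left out. The estimate of mrpl19 ran from −0.157 to 0.128 across the left-out libraries and changed sign in 3 of them, at −0.032 without wild-type replicate 1, −0.045 without wild-type replicate 2 and −0.157 without mutant replicate 3. The causes were not tested. Precision was limited by 3 libraries a group, of which one wild-type library stood apart.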
